A study of Homo sapiens with 19 samples.

Results

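The transcripts described here are those of the oxidative phosphorylation machinery of mitochondria, measured in human liver organoids. Members were the genes whose symbols in the first OA library follow the naming patterns of the subunits of complex I (NDUFA, NDUFB, NDUFC, NDUFS and NDUFV with a number), complex III (UQCR), complex IV (COX4 to COX8) and ATP synthase (ATP5F, ATP5M and ATP5P), together with the protein-coding genes of the mitochondrial genome (MT-ND, MT-CO, MT-ATP and MT-CYB). They were matched to the other libraries by Ensembl identifier. The patterns gave 91 genes of the 32703 listed for every library. Of these, 78 are nuclear (36 of complex I, 9 of complex III, 15 of complex IV and 18 of ATP synthase) and 13 are mitochondrial (7, 1, 3 and 2). The patterns use names alone. NDUFA4 was counted with complex IV. The patterns leave out complex II, cytochrome c, CYC1 and COX4I1, which were followed in a list of their own.

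The organoids were grown from W01, an established human pluripotent stem cell line (WiCell, wild-type), and profiled as single cells with 10x Genomics 3′ version 3 chemistry. The 19 libraries fall into 9 groups. Organoids in ultra-low attachment (ULA) plates received no treatment and were taken on day 21 (n = 3) or day 34 (n = 2). Organoids on an orbital shaker were taken on day 25 in groups of 2 libraries: untreated organoids, TGFB1 at 10 ng/ml, PA at 500 µM, OA at 500 µM, and a separate control for each of the 3 agents. PA and OA are not spelled out in the labels and are kept as written. Shaker organoids were cultured for 20 days before 5 days of treatment, and the protocol names TGFB1 and PA but not OA. Organoids of the shaker and of day 34 had a further wash and 10 more minutes of trypsin than those of day 21, which cannot be told apart from age and culture. All libraries come from 1 cell line, and the labels do not say whether replicates were separate cultures, so p-values measure the spread between these samples.

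In oxidative phosphorylation, complexes I, III and IV pass electrons from NADH to oxygen and pump protons across the inner mitochondrial membrane, and ATP synthase uses the returning protons to make ATP. Most subunits are encoded in the nucleus, translated in the cytosol and imported, whereas a core set is transcribed inside the organelle from long polycistronic RNAs. Hepatocytes are rich in mitochondria and rely on this chain to oxidise fatty acids. NRF1, ETS-family factors (NRF2/GABP), YY1 and oestrogen-related receptors (ERR) are known regulators of the nuclear genes.

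RefSeq promoters (GRCh38.p14, 250 bases before to 50 after the start) were matched for 63 of the 78 nuclear members and searched on both strands for 4 short motifs. The NRF1 motif (GCGCA and GCGC parted by any 1 base) was present in 15 member promoters (23.8%) and in 6.28% of all 27305 promoters. The ETS motif CCGGAAG was present in 17 (27.0%, against 10.7% of all promoters). AAGATGGCG, the YY1 motif, which can share the letters AAG with an ETS match, was present in 7 (11.1%, against 1.85%). TCAAGGTCA, an ERR motif, was in 0 member promoters and in 0.359% of all promoters. At least 1 of the motifs was found in 34 of the 63. These are matches of letters, not measured binding. These promoters are shown because the genes recur in the results: NDUFS1, COX7B and COX7A2 rose with OA under every alternative tried, UQCRC1 rose with OA and carries a pair of motifs, and NDUFA7 fell with TGFB1 under every alternative tried. Capitals mark motif matches: an ETS match, read on the opposite strand, in NDUFS1 (chr2:206159395-206159694, minus strand), an NRF1 match, read on the opposite strand, and a YY1 match in UQCRC1 (chr3:48609597-48609896, minus strand) and a YY1 match in NDUFA7 (chr19:8321326-8321625, minus strand). COX7B (chrX:77899218-77899517, plus strand) and COX7A2 (chr6:75250249-75250548, minus strand) held none of the 4 in these windows. Only 1 window per gene was searched, so other transcription starts of a gene were not covered.
NDUFS1: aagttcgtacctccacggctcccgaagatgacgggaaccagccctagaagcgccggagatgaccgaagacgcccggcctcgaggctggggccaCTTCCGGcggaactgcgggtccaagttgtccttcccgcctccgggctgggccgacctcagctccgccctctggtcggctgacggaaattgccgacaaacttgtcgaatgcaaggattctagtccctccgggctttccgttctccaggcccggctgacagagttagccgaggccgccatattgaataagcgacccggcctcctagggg
COX7B: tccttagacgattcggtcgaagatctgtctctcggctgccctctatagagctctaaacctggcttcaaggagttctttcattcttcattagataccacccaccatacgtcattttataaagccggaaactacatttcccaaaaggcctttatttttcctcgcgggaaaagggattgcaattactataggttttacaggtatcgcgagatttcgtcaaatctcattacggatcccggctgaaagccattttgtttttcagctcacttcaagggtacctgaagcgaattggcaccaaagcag
COX7A2: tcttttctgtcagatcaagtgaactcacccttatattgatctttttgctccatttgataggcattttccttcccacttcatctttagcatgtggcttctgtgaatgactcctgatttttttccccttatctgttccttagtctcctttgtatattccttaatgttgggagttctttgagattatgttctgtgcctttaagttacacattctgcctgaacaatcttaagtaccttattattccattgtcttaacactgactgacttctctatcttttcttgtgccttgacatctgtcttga
UQCRC1: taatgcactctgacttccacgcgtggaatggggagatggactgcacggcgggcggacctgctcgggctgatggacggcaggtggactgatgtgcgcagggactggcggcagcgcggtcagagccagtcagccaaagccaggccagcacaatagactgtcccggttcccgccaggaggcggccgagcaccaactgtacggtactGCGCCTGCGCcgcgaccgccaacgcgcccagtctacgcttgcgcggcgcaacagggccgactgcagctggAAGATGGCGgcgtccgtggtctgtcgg
NDUFA7: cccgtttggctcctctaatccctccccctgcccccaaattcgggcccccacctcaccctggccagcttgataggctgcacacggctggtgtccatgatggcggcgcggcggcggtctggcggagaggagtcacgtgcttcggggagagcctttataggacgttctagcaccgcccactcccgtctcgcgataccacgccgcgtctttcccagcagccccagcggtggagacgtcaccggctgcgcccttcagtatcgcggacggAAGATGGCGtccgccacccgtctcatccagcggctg

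Kept cells had 500 or more genes and no more than 20% MT- counts, 3089 to 12427 per library, holding 6880807 to 91184130 UMIs (unique molecular identifiers, counts of captured RNA molecules). The MT- limit removed 0.0104% to 12.6% of cells. It counted every MT- gene listed, which in ULA matrices alone included the mitochondrial ribosomal RNAs. Levels are UMI counts scaled to the total of kept cells (counts per 1000000, CPM), and libraries, not cells, were the replicates. The shallowest libraries were TGFB1 control replicate 1 (median 1310 UMIs per cell) and PA control replicate 1 (1747). Pairs of libraries shared 0.0551% to 0.553% of cell barcodes. Summed hepatocyte markers reached 24260 CPM in an OA library but were 98.6 and 866 CPM in the day 34 ULA libraries. Cells were also split by their larger sum of epithelial or mesenchymal marker UMIs (at least 2): these classes are ranges of marker counts, not cell types.

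Nuclear members together made up 2.00% to 2.84% of UMIs, and the 13 mitochondrial members 3.66% to 8.65%, as group means. The nuclear share was lowest with TGFB1, at 2.00% (1.91% and 2.09% in the 2 libraries), and highest with OA, at 2.84% (2.79% and 2.89%). Between these lay untreated shaker organoids at 2.16% (2.16% and 2.17%), ULA day 21 at 2.28% (2.05% to 2.57%), ULA day 34 at 2.32% (2.09% and 2.56%), the OA control at 2.56% (2.51% and 2.62%), the TGFB1 control at 2.69% (2.29% and 3.10%), the PA control at 2.72% (2.67% and 2.78%) and PA at 2.78% (2.73% and 2.83%). Apart from TGFB1 and untreated organoids, the libraries of each group overlapped those of the next in this order, where neighbours are mostly of different experiments. Against their own controls, both TGFB1 libraries were lower and both OA libraries higher, without overlap, while PA libraries overlapped theirs. The OA control also lay above untreated organoids without overlap. The mitochondrial share ranged more widely within groups. It was 3.66% on ULA day 34 (2.71% and 4.62%), 5.78% (4.45% and 7.12%) for the control of TGFB1, 5.93% for TGFB1 itself (4.98% and 6.89%), 6.82% on ULA day 21 (4.67% to 10.2%), 7.08% in untreated organoids (5.24% and 8.93%), 7.12% with OA (7.09% and 7.15%), 7.85% in the OA control (7.31% and 8.38%), 8.29% with PA (7.75% and 8.84%) and 8.65% in the PA control (7.92% and 9.38%). Apart from OA and its control, the libraries of each group again overlapped those of the next. The ratio of mitochondrial to nuclear member UMIs ran from 1.30 to 4.95 across the 19 libraries, both extremes in ULA organoids. In bulk sums such as these, fewer cells of a type and less RNA per cell cannot be told apart. By the median over single cells, the nuclear share was 2.57% and 2.58% with OA and 2.51% and 2.52% in the OA control. The same median was 2.73% and 2.84% with PA and 2.84% and 2.62% in the PA control, so OA was not the highest group by this measure.

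**Figure D1:**
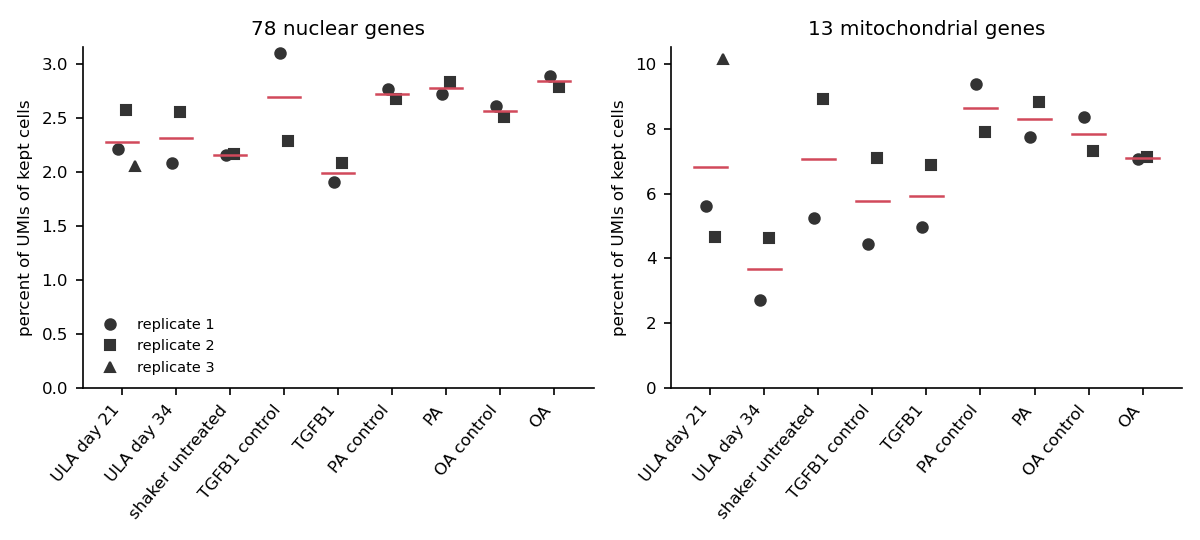
Share of kept UMIs (percent, y axis from 0) held by the nuclear (left) and mitochondrial (right) oxidative phosphorylation genes in each group. Each point is 1 library and the bar its group mean; nuclear shares stay between 1.91% and 3.10% of UMIs, while the mitochondrial share of the 3 day 21 ULA libraries alone spans 4.67% to 10.2%.

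Among single nuclear members, ATP5F1E, the epsilon subunit of ATP synthase, averaged 1643 CPM over the 9 groups, COX7C, a small subunit of complex IV, 1438 CPM and NDUFA4 768 CPM. Their order changed between groups: COX7C had the higher group mean of the first pair in both ULA groups (917 against 850 CPM on day 21, 1076 against 1063 on day 34), the PA control (2218 against 1911) and PA (2150 against 1983). On ULA day 34 and with PA, the order reversed between the 2 libraries of the group. In all, 71 of the 78 nuclear members reached a mean of 10 CPM. Since 3′ libraries count molecules by their ends, levels of different genes were compared without a correction for length. Over the same 9 groups MT-CO2 and MT-CO1, the catalytic core of complex IV, averaged 12990 and 11260 CPM, MT-CYB, the core of complex III, 10730 and MT-CO3 9986 CPM. Here too the order of group means varied, with MT-CYB highest in the PA control (16550 CPM, MT-CO2 15520) and MT-CO3 on ULA day 21 (13980, MT-CO2 13240). Each of these rested on 1 library, PA control replicate 1 (19180 against 16860 CPM) and ULA day 21 replicate 3 (23370 against 17340). MT-CO2 was above them in the other libraries of those groups. MT-ND3 (6203 CPM), MT-ATP6 (5714) and MT-ND4 (4856) came next. Lower still were MT-ND2 (2015 CPM), MT-ND1 (1818), MT-ND5 (1486), MT-ND4L (538), MT-ND6 (258) and MT-ATP8 (122). MT-ND6 is the one member read from the light strand.

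Levels could not be compared across all 9 groups for every gene, because the ULA matrices list 58721 genes, those of TGFB1 and PA 33538 and those of OA and untreated organoids 36601. Among groups that share a list, the highest group mean exceeded the lowest by a median of 1.18-fold (ULA), 1.52-fold (TGFB1 and PA) and 1.36-fold (OA and untreated) over the 71 nuclear members. Between lists, the highest list mean over the lowest had a median of 1.47-fold, with 63 of 71 under 2-fold. List means are averages over several groups, so this ratio cannot be set directly against those within lists. A few members stood apart between lists. NDUFV2, a flavoprotein subunit of the NADH-binding part of complex I, averaged 22.4 CPM in ULA, 207 in the TGFB1 and PA groups and 289 in the OA and untreated groups. NDUFA7, an accessory subunit of complex I, averaged 11.1, 12.8 and 116 CPM, and MT-ATP8, a subunit of ATP synthase, 32.7, 113 and 193 CPM. In GENCODE v44, 37 of the 91 members overlap another gene on the same strand. One such gene overlaps NDUFA7 and is listed for ULA, TGFB1 and PA but not for OA, and one overlaps NDUFV2 and is listed for ULA alone. The ULA, TGFB1 and PA matrices name the same software version, and those of OA and untreated organoids another. Experiment and gene list cannot be told apart here, nor can software version for the OA and untreated list. Every comparison below therefore stays within 1 list, except the difference between the OA and PA effects.

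Several complex IV subunits have a second, tissue-restricted copy, and these were nearly silent. COX6A1 gave at least 99.9% of the COX6A transcripts and COX6B1 at least 99.7% of COX6B in every group mean. The heart and muscle forms COX6A2 and COX7A1 had 87 and 31 UMIs over all 19 libraries, and COX8C, COX6B2 and COX7B2 had 93, 667 and 6. COX7A1 and COX7B2 were tested in no comparison. COX8C was tested only in ULA organoids (35 UMIs on day 34 and 39 on day 21) and COX6A2 only in shaker organoids. The 3 genes for the c subunit of ATP synthase, which encode the same mature ring protein, divided their transcripts differently between groups. TGFB1 control libraries drew 55.6% of the 3 from ATP5MC2 (52.1% and 59.2%), TGFB1 libraries 40.1% (39.9% and 40.4%), OA control libraries 49.4% (47.6% and 51.2%) and OA libraries 36.7% (34.1% and 39.2%). ATP5MC3 gave 34.8% (30.4% and 39.2%) and 51.6% (51.5% and 51.7%) in the first pair, and 38.7% (36.3% and 41.1%) and 52.5% (50.1% and 55.0%) in the second. In both pairs the treated and control libraries did not overlap. The ATP5MC2 share did not overlap for PA either, at 50.4% (48.7% and 52.1%) against 54.8% in its control (53.2% and 56.5%), while the ULA ages overlapped (40.7% on both days). Non-overlap was not limited to treated groups: untreated organoids, at 57.7% (51.6% and 63.8%), also lay above the OA control. The single genes did not pass the test: ATP5MC2 had a log2 fold change of -0.67 with TGFB1 (edgeR adjusted p 0.101) and -0.33 with OA (0.366), ATP5MC3 0.34 (0.388) and 0.56 (0.109), and ATP5MC1 -0.41 (0.185) and -0.03 (0.909).

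The OA comparison asks what OA did relative to its own control. OA organoids had higher transcripts of a subset of nuclear subunits, among them 7 of complex IV, and none was called lower under TMM scaling. Of 75 nuclear members tested, 18 rose (24%) and 0 fell. Over all 19361 genes, 21.7% were called higher and 21.6% lower, so the share that rose was close to that of all genes. The median log2 fold change was 0.38 over nuclear members (66 of 75 above 0) and -0.08 over all genes. By complex, 7 of 36 members rose in complex I, 1 of 9 in complex III, 7 of 12 in complex IV and 3 of 18 in ATP synthase. As a share of UMIs, nuclear complex IV was 0.766% with OA (0.744% and 0.787%) and 0.603% in the control (0.576% and 0.630%), while complex I was 0.809% (0.80% and 0.82%) and 0.822% (0.818% and 0.825%).

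This tally depended on the scaling. TMM scales libraries so that most genes are level. OA libraries held far less cytosolic ribosomal protein RNA (116600 and 126700 CPM, against 228200 and 212200 in the control). With plain library sizes the median of all genes moved by -0.34 and the share of all calls that were higher from 50.1% to 30.6%. Nuclear members then gave 5 higher (COX6A2, COX7A2, COX7B, NDUFS1 and NDUFV2) and 2 lower (ATP5MC2 and NDUFS5), with a median of 0.04 and 40 of 75 above 0. The values in CPM below use plain library sizes, and the fold changes use TMM.

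NDUFS1, the largest subunit of complex I and a carrier of its iron-sulphur clusters, reached 83.6 and 76.4 CPM in the OA libraries, where the OA control had 43.0 and 44.2. Untreated organoids lay between, at 60.1 and 61.5 CPM. The OA and control libraries did not overlap, and the log2 difference was 1.22 (SE 0.18, edgeR adjusted p 0.000147). NDUFV2, in the same complex, was at 225 and 227 CPM in the control and 430 and 400 with OA (1.22, SE 0.31, adjusted p 0.0069), again without overlap and above untreated organoids (253 and 198).

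Complex IV supplied most of the other large changes. COX7B, a small structural subunit, was at 379 and 344 CPM in the control, 656 and 612 with OA and 283 and 305 in untreated organoids, or 1.15 as log2 fold change (SE 0.23, adjusted p 0.0015 by edgeR). COX7A2, the widely expressed form of subunit 7A, which also contacts complex III in supercomplexes, was at 602 and 529 CPM in the control and 980 and 931 with OA (1.09, SE 0.23, adjusted p 0.00182). In both genes the OA libraries were the highest of the 6 and did not overlap the others. COX6A1 was at 724 and 648 CPM against 1077 and 929 (0.88, SE 0.24, adjusted p 0.0101), and COX8A at 355 and 333 against 511 and 500 (0.89, SE 0.25, adjusted p 0.0119), also without overlap. COX6A2 was called as well, but on 17 UMIs against 1, which per total is 17.3-fold with a 95% counting interval of 2.71 to 724. The remaining members called higher were COX5B and COX6C of complex IV, NDUFA1, NDUFA5, NDUFA6, NDUFB9 and NDUFS4 of complex I, UQCRC1, a core protein of complex III, and ATP5F1C, ATP5PD and ATP5PF of ATP synthase, with log2 fold changes of 0.51 to 0.93. NDUFS1, COX7B and COX7A2 were called in all 16 alternatives tried for them, at 0.88 to 1.30, 0.73 to 1.30 and 0.74 to 1.27. Leaving out 1 library gave 3 nuclear calls without OA control replicate 2, 5 without OA replicate 1 and 9 without OA replicate 2.

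**Figure D2:**
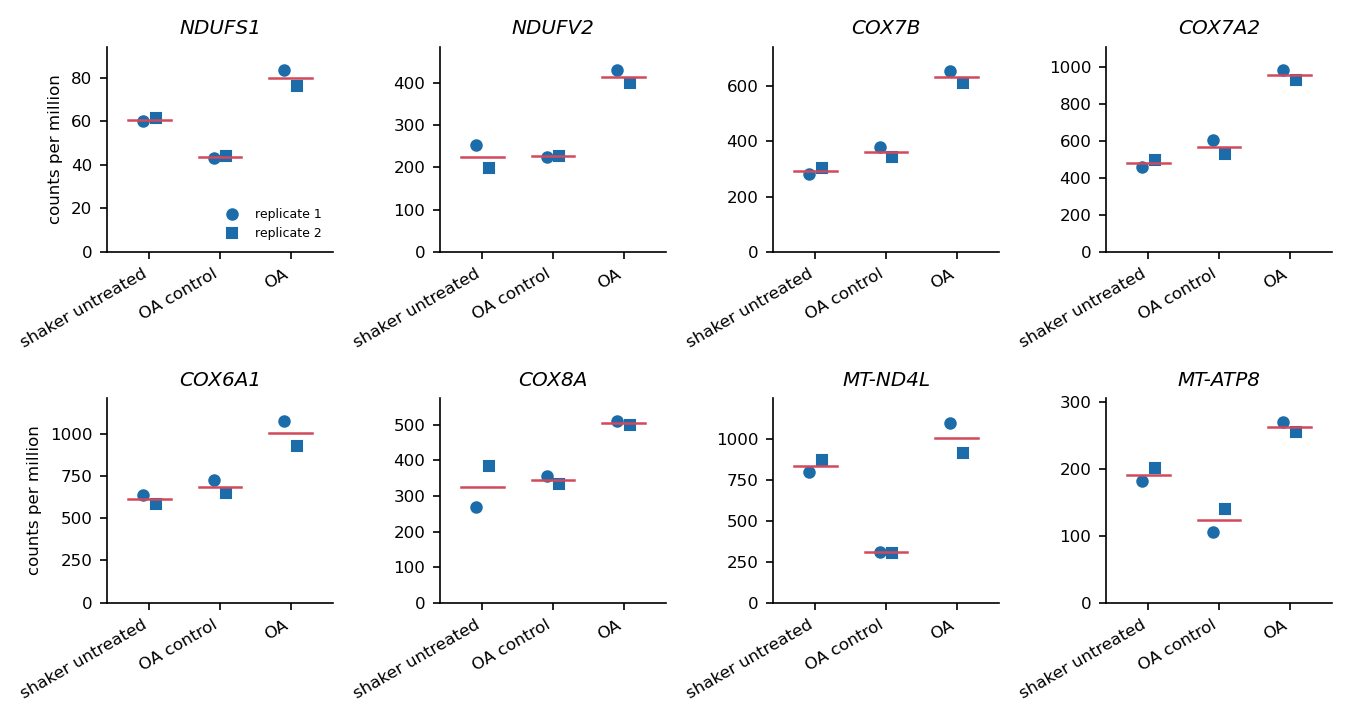
Levels in CPM (y axes from 0) of oxidative phosphorylation genes in untreated, OA control and OA organoids. Each point is 1 library and the bar its group mean; in COX7B the OA libraries (656 and 612 CPM) sit above all others, while in MT-ND4L the OA control (311 and 302 CPM) sits below both other groups.

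Of the 13 mitochondrial genes, 2 rose with OA (15.4%), a share below the 21.7% of all genes called higher. MT-ND4L, a small core subunit of complex I, was at 311 and 302 CPM in the control and 1095 and 914 with OA, or 2.05 as log2 fold change (SE 0.25, adjusted p 3.6e-05 by edgeR). Untreated organoids held 799 and 870 CPM, so that the control was the low group. Under edgeR, MT-ND4L was also the 1 member called between the OA control and untreated organoids, where DESeq2 called others too (-1.30, SE 0.24, edgeR adjusted p 0.0400). That second comparison shares the OA control libraries with the first. Its MT-ND4L call was kept in 8 of 16 alternatives, with log2 fold changes of -1.44 to -1.16 over the 16. The call was lost when any 1 of its 4 libraries was left out. It was also lost in a fit of its own libraries, where 0 of all 18083 genes were called. MT-ND4L is carried on 1 transcript with MT-ND4, which it overlaps on the same strand, and MT-ND4 was not called: 4422 and 4440 CPM in the control, 4951 and 4524 with OA, 2972 and 5594 untreated (OA log2 fold change 0.44, adjusted p 0.342). Reads in the shared stretch cannot be assigned to one of the 2 genes from these counts. MT-ATP8, which overlaps MT-ATP6, was at 107 and 141 CPM in the control and 271 and 256 with OA (1.44, SE 0.51, adjusted p 0.0368). It was called in 8 of 15 alternatives, and MT-ND4L in all 15. MT-ND2 (0.89, adjusted p 0.0563) and MT-ND5 (0.84, 0.0530) lay just outside the threshold. The other 9 ranged from -0.24 for MT-CO3 to 0.48 for MT-ND6, with MT-ND1 at -0.10, MT-ND3 at -0.04, MT-CO1 at 0.11, MT-CYB at 0.16, MT-CO2 at 0.29, MT-ND4 at 0.44 and MT-ATP6 at 0.44. These signs depended on the scaling. With TMM the median of the 13 was 0.44 with 10 above 0, and with plain library sizes 0.10 with 7 above 0. In CPM, MT-CO1 was lower with OA (12020 and 12050, against 15370 and 12660 in the control). So were MT-CO3 (7586 and 8880 against 12840 and 11640), MT-ND1 (1769 and 1553 against 2301 and 2201) and MT-ND3 (6946 and 6682 against 9123 and 8588). MT-CYB, MT-CO2 and MT-ND6 overlapped. MT-ND2, MT-ND4, MT-ND4L, MT-ND5, MT-ATP6 and MT-ATP8 were higher with OA without overlap.

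The makeup of the organoids moved in the same comparison. Summed mesenchymal markers were 232 and 203 CPM with OA and 2702 and 4441 in the control, hepatocyte markers 24260 and 23630 against 12550 and 9042, gut epithelial markers 6382 and 4939 against 545 and 305, and cycling markers 128 and 143 against 400 and 435. Epithelial markers were 10160 and 9603 against 7103 and 6831 CPM, endothelial and blood markers 87.2 and 74.7 against 17.4 and 13.2, neural markers 96.8 and 84.2 against 190.5 and 267.7, muscle markers 2.21 and 2.00 against 12.2 and 21.1, and germ cell markers 4.54 and 5.17 against 9.02 and 12.02. All these sums parted the groups without overlap, and squamous markers overlapped. Mesenchymal-marker cells were 43 and 48 per OA library (1.39% and 1.49%), against 36.8% and 38.9% of control cells. Within epithelial-marker cells, 13 of 75 nuclear members rose and 0 fell, beside 18.8% of all genes higher and 17.1% lower. NDUFS1 there differed by 1.12 as log2 fold change (SE 0.18, adjusted p 0.000525 by edgeR), COX7B 1.02, COX7A2 0.95 and MT-ND4L 2.01, where all cells gave 1.22, 1.15, 1.09 and 2.05. The nuclear count was 1 (NDUFS1) without OA control replicate 2, 4 without OA replicate 1 and 5 without either other library. The part of these markers in the result was not tested. MALAT1 and NEAT1, RNAs held in the nucleus, rose by 1.03 and 1.78.

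Other genes of the pathway were followed in lists, to be read beside the 21.7% of all genes higher and 21.6% lower. Citrate cycle and pyruvate dehydrogenase genes gave 8 of 16 higher and 0 lower with OA, led by SUCLG2 (1.90, SE 0.29) and OGDH (1.43, SE 0.25), subunits of succinyl-CoA ligase and of the oxoglutarate dehydrogenase complex, with a median of 0.79. Of chain proteins outside the naming patterns, 4 of 11 rose and 0 fell, among them SDHB (1.04) and SDHD (1.01) of complex II. Of carriers and porins, 2 of 7 rose, VDAC1 (1.23) and VDAC2 (0.89), the channels of the outer membrane. Assembly factors split, with 3 higher and 3 lower of 35: COX17, the copper chaperone of complex IV, rose by 1.75 (SE 0.28), and BCS1L, which builds complex III, fell by 1.21 (SE 0.23). Regulators split as well, 2 and 2 of 16, with PPARGC1B, a coactivator of mitochondrial genes, at 1.89 and TWNK, the mitochondrial DNA helicase, at -1.27. Mitochondrial ribosomal proteins gave 4 higher and 8 lower of 75, and cytosolic ones 0 and 29 of 78 with a median of -0.58.

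**Figure D3:**
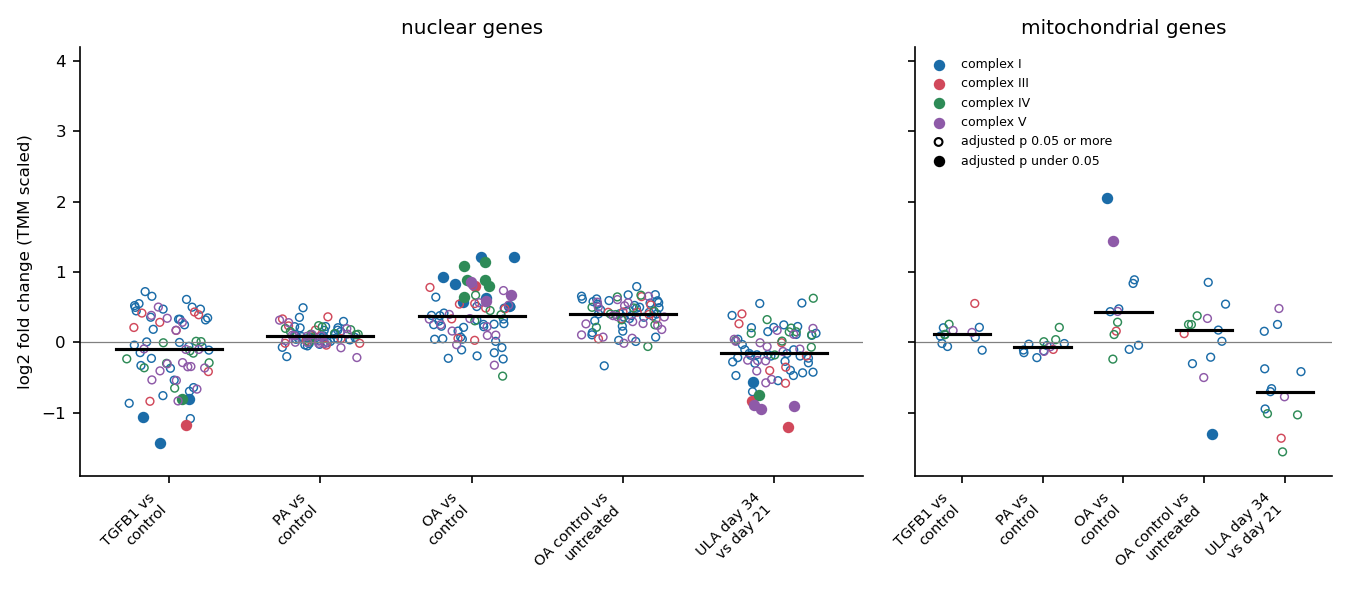
Log2 fold change (y axis, TMM scaled) of each nuclear (left) and mitochondrial (right) member in 5 comparisons, 1 point per gene, with genes passing an edgeR adjusted p of 0.05 marked. COX6A2, with few UMIs, is left out; nuclear members spread around a median of 0.38 with OA, 0.09 with PA and -0.16 in ULA organoids.

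With PA at the same 500 µM concentration no member passed the test. Of 75 nuclear members, 0 were called by edgeR, 0 had an unadjusted p under 0.05 (2.79% of all genes did) and 0 were called by DESeq2, beside 0.0465% of all genes called higher and 0% called lower by edgeR. DESeq2 called 43 of all 19361 genes higher and 8 lower. The median log2 fold change by edgeR was 0.09, with 60 of 75 above 0. With plain library sizes it was 0.03, with 48 of 75 above 0, and the median of all genes moved by -0.06. The smallest p-values were those of COX6A2 (25 UMIs with PA, 8 in the control, ratio 1.99, 95% counting interval 0.869 to 5.10), NDUFB3 and NDUFA6, all with an edgeR adjusted p of 1.0. NDUFB3, an accessory subunit of complex I, was at 40.0 and 43.2 CPM in the control and 28.8 and 83.3 with PA (0.49, SE 0.36), and its sign rested on PA replicate 2 (-0.47 without it). NDUFA6 was at 135 and 170 CPM in the control and 173 and 169 with PA (0.22, SE 0.18). Of the 13 mitochondrial genes 0 were called by either tool, with 0 at an unadjusted p under 0.05 and log2 fold changes of -0.22 (MT-ND1) to 0.21 (MT-CO1). MT-ND4L was at 501 and 388 CPM in the control and 411 and 381 with PA (-0.12). The pathway lists held 0 calls.

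The OA and PA effects were compared directly as a difference of fold changes. NDUFS1 (difference 1.25, SE 0.25, edgeR adjusted p 0.00413), COX7B (0.99, SE 0.32, adjusted p 0.0449) and COX7A2 (0.97, SE 0.32, adjusted p 0.0463) had different OA and PA effects. So did MT-ND4L (2.17, SE 0.34, adjusted p 0.000963), whose OA control (311 and 302 CPM) lay below untreated organoids (799 and 870 CPM). These were 3 of 75 nuclear and 1 of 13 mitochondrial members, all higher with OA, beside 10.2% of all genes higher and 10.3% lower. NDUFS1 and MT-ND4L passed in all 20 and 19 alternatives, COX7B in 6 and COX7A2 in 5 of 20, and the nuclear count was 1 or 2 without any 1 of the 8 libraries. The 2 experiments used different gene lists and software versions, each against its own control, so agent and experiment cannot be told apart.

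TGFB1, a cytokine known for driving fibrosis, was compared with its own control. A few small subunits had lower transcripts. No member was called higher by edgeR, although DESeq2, and edgeR without the filter on low counts, called NDUFA9 higher. Of 75 nuclear members, 0 rose and 5 fell by edgeR (6.67%), beside 10.9% of all genes higher and 11.3% lower. The median log2 fold change was -0.09, close to the -0.05 of all genes, and 31 of 75 were above 0. With plain library sizes 11 fell and the median was -0.29, while the median of all genes moved by -0.19 and the share of all calls that were higher from 49% to 31.6%.

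NDUFA7 was at 28.2 and 14.4 CPM in the control and 6.77 and 6.58 with TGFB1, or -1.43 as log2 fold change (SE 0.23, adjusted p 0.000779 by edgeR). The groups did not overlap, and the shallower control library was the higher of the 2. NDUFA7, NDUFA13 and NDUFC1 each overlap another listed gene on the same strand, so their counts are uncertain. UQCRQ, a small subunit of complex III, was at 1610 and 544 CPM in the control and 342 and 457 with TGFB1 (-1.18, SE 0.38, adjusted p 0.0394). NDUFA13, an accessory subunit of complex I also known as GRIM-19, was at 368 and 210 against 114 and 124 CPM (-1.06, SE 0.28, adjusted p 0.0181). Again control replicate 1 held the highest value. COX7C was at 2299 and 1526 against 823 and 1055 CPM (-0.81, SE 0.24, adjusted p 0.0276), and NDUFC1 at 404 and 212 against 140 and 161 CPM (-0.81, SE 0.25, adjusted p 0.0348). NDUFA7 passed in all 17 alternatives (-1.77 to -1.01). The other 4 lost their calls without control replicate 1, without TGFB1 replicate 1 or without TGFB1 replicate 2, each of which left NDUFA7 as the single call. Over the 17 alternatives NDUFA13 ranged from -1.32 to -0.73, COX7C from -1.03 to -0.61, NDUFC1 from -1.11 to -0.40 and UQCRQ from -1.70 to -0.35. Without control replicate 2, which left 1 control library, more nuclear members passed in both directions, as did more of all genes.

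The 13 mitochondrial genes gave 0 calls with TGFB1 (edgeR and DESeq2; 0 at an unadjusted p under 0.05, beside 36.0% of all genes). Their log2 fold changes ran from -0.11 for MT-ND6 to 0.55 for MT-CYB, and MT-CYB was at 3542 and 11030 CPM in the 2 control libraries and 8241 and 11090 with TGFB1. Mesenchymal markers were 771 and 734 CPM in the control and 1702 and 2070 with TGFB1, with 6 of 12 called higher. Cycling markers were 451 and 340 against 66.2 and 61.9 CPM, gut epithelial markers 266 and 225 against 74.4 and 88.7, and epithelial markers 4793 and 7427 against 11090 and 8821. Summed hepatocyte markers were higher with TGFB1 (2750 and 4021 against 5433 and 4599 CPM), although 5 of 11 fell and 1 rose. MALAT1 and NEAT1 together were 54500 and 35830 against 22760 and 28130 CPM, neural markers 39.5 and 40.9 against 98.0 and 75.6, squamous markers 12.6 and 13.3 against 18.4 and 19.9, and muscle markers 4.43 and 3.77 against 3.54 and 2.45. None of these sums overlapped between the groups. Their part in the result was not tested. Of assembly factors 0 rose and 2 of 35 fell: ATPAF1, a chaperone for assembling ATP synthase (-0.73, SE 0.18), and COA5, an assembly factor of complex IV (-0.57, SE 0.19). Mitochondrial ribosomal proteins gave 4 higher and 2 lower of 75. Citrate cycle genes, regulators, carriers and the chain proteins outside the patterns held 0 calls.

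For 6 members the log2 fold change with TGFB1 differed between the marker classes. Mesenchymal-marker cells were 3.84% and 4.01% of kept cells in the control and 8.53% and 10.9% with TGFB1. The class markers themselves changed, so a class need not hold the same cells in both groups, and the part of this was not tested. In epithelial-marker cells the same 5 members fell and NDUFA9, an accessory subunit of complex I, rose by 0.76 (SE 0.26, edgeR adjusted p 0.0470), beside 12.1% of all genes higher and 12.4% lower. In mesenchymal-marker cells (341 to 750 per library) 0 of 72 members were called by edgeR and 12 had an unadjusted p under 0.05 (13.3% of all genes), beside 0.147% of all genes higher and 0.243% lower. Tested as a difference of effects, 6 of 74 members had a higher effect in mesenchymal-marker cells and 0 a lower one, beside 2.22% and 4.53% of all genes. The clearest was ATP5MC2. In epithelial-marker cells it was at 787 and 762 CPM in the control and 415 and 375 with TGFB1, and in mesenchymal-marker cells at 830 and 729 against 670 and 631. The difference of effects was 0.75 (SE 0.16, edgeR adjusted p 0.0039). The other 5 were ATP5MC1, NDUFB1, NDUFC1, COX7C and ATP5MG, and the direction was the same for 68 of the 74. The count of 6 rose without control replicate 2, although fewer of all genes were called there. It fell without any other library of the comparison, again with fewer of all genes called. Within each class, more members and more of all genes passed without control replicate 2. Without any other library fewer of all genes passed, and fewer members in epithelial-marker cells.

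**Figure D4:**
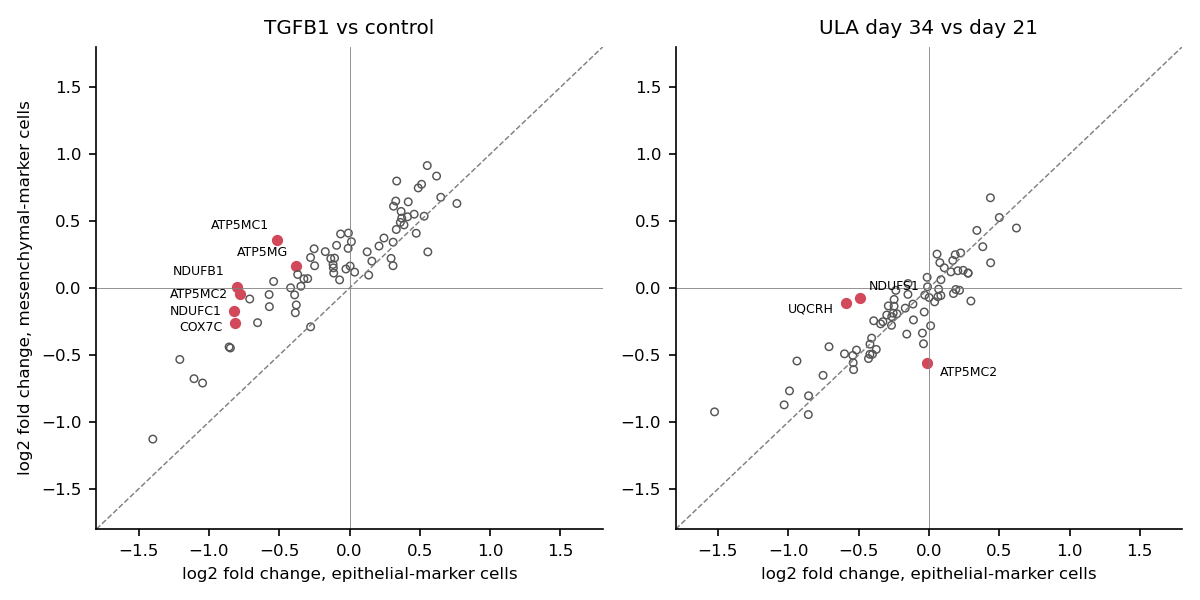
Log2 fold change of nuclear members in mesenchymal-marker cells (y axis) against that in epithelial-marker cells (x axis), for TGFB1 and for ULA day 34 against day 21. Nuclear genes whose 2 effects differ at an edgeR adjusted p of 0.05 are marked. Mitochondrial members, and any point beyond the axis range, are not shown. With TGFB1 the marked genes lie above the diagonal, and ATP5MC2 reads -0.78 and -0.05.

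The OA control was compared with untreated shaker organoids as a check of the control. Nuclear members gave 0 calls by edgeR and 22 at an unadjusted p under 0.05, beside 0.0826% of all genes called higher and 0.491% lower by edgeR and 14.6% at that unadjusted p. DESeq2 called 6 of them higher, among 155 genes higher and 546 lower of 19361 tested. The median was 0.40 and 71 of 75 were above 0. The smallest p-values were those of COX5B (338 and 367 CPM untreated, 517 and 479 in the control, 0.65, edgeR adjusted p 0.172), NDUFB8 (176 and 139, 205 and 222 CPM, 0.59, adjusted p 0.173) and ATP5MC1 (90.2 and 115, 161 and 131 CPM, 0.65, adjusted p 0.181). In each the libraries did not overlap. Cytosolic ribosomal proteins had a median of 0.52 with 77 of 78 above 0, and mitochondrial ones a median of 0.44. With plain library sizes the nuclear median was 0.25, the median of all genes moved by -0.15, and the share of all calls that were higher went from 14.4% to 5.1%. MALAT1 and NEAT1, RNAs retained in the nucleus, together were lower in both OA control libraries (42140 and 36130 CPM) than in both untreated ones (51300 and 65040), as were endothelial and blood markers (17.4 and 13.2 against 18.6 and 24.9). Their part in these values was not tested.

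ULA organoids were compared by age. On day 34, 3 subunits of ATP synthase, 2 genes of complex III and 1 subunit each of complexes I and IV had lower transcripts than on day 21. By edgeR, 7 of 75 nuclear members fell (9.33%) and 0 rose, while DESeq2 called NDUFA1 and NDUFC1 higher. The edgeR share of lower members was close to that of all genes, of which 7.91% were lower and 9.60% higher. The median was -0.16, against 0.02 for all genes. ATP5F1B, the catalytic beta subunit of ATP synthase, was at 443, 414 and 430 CPM on day 21 and 223 and 282 on day 34, or -0.89 as log2 fold change (SE 0.18, adjusted p 0.0188 by edgeR). ATP5F1A, its alpha partner, was at 343, 303 and 371 against 167 and 217 CPM (-0.95, SE 0.20, adjusted p 0.0215). ATP5PB, of the peripheral stalk, was at 234, 265 and 292 against 138 and 168 CPM (-0.91, SE 0.19, adjusted p 0.0225). UQCRC2, a core protein of complex III, was at 131, 134 and 138 against 79.9 and 84.7 CPM, with the tightest groups (-0.83, SE 0.15, adjusted p 0.0139). In all of these every day 34 library was below every day 21 library. Other core subunits did not pass, among them UQCRC1 (-0.20, edgeR adjusted p 0.507), UQCRFS1 (-0.58, 0.0705) and ATP5F1C (-0.58, 0.0603), named after their values were seen.

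COX5A of complex IV (439, 431 and 422 against 239 and 319 CPM, -0.75, edgeR adjusted p 0.0355) and NDUFV1, which binds NADH in complex I (88.7, 82.8 and 76.5 against 57.5 and 64.5 CPM, -0.56, adjusted p 0.0443), were also called. UQCRHL (-1.21, adjusted p 0.0167), at under 11 CPM, is a near copy of UQCRH without introns, and reads could be split between them. Of the 7 lower calls, 6 were among the 28 members whose canonical transcript exceeds 1000 bases (median -0.35) and 1 among the 47 shorter ones (median -0.01). Across genes, which are not independent replicates, length and fold change had a Spearman correlation of -0.44 (n = 75). The part of transcript length in the result was not tested. The nuclear count was 0 without day 21 replicate 1 or without day 21 replicate 3, and 1 (UQCRC2) without day 21 replicate 2. Of all genes, 439 were then higher and 321 lower without replicate 1, 759 and 646 without replicate 2, and 370 and 299 without replicate 3. With all libraries 1801 were higher and 1484 lower. Without day 34 replicate 2 the nuclear count rose, as did that of all genes. With plain library sizes there were 5 lower and 1 higher (NDUFC1), the nuclear median was -0.03 and the median of all genes moved by 0.12, with the share of all calls that were higher going from 54.8% to 67.7%.

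**Figure D5:**
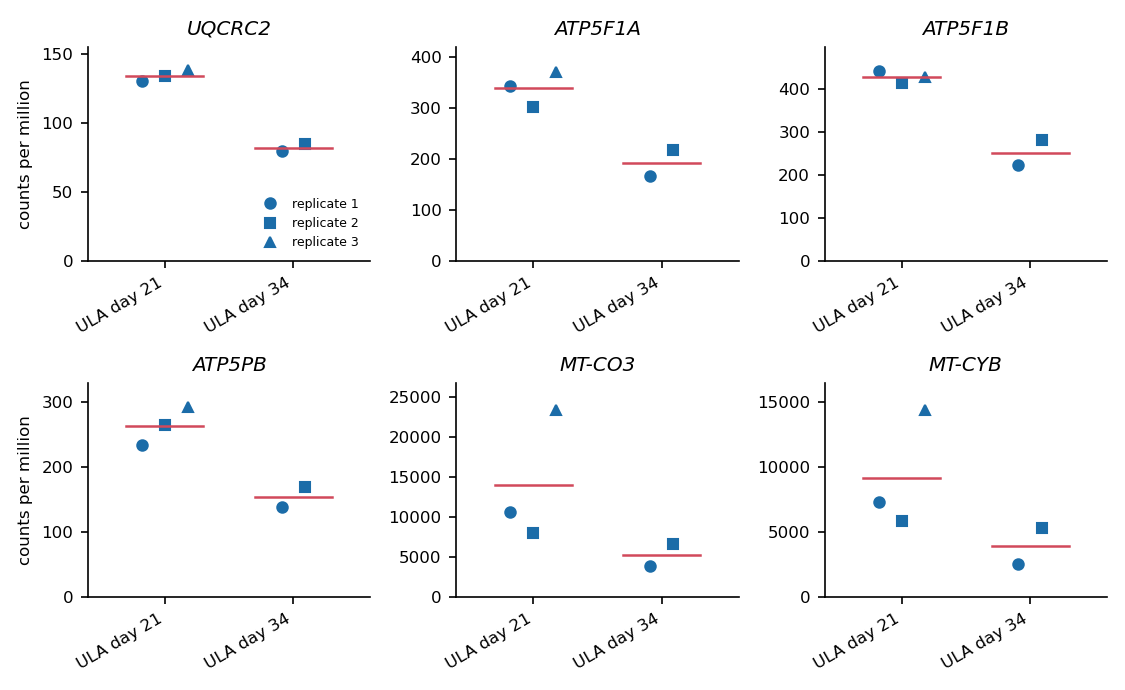
Levels in CPM (y axes from 0) of oxidative phosphorylation genes in ULA organoids on day 21 (3 libraries) and day 34 (2 libraries). Each point is 1 library and the bar its group mean; UQCRC2 falls from 131 to 138 CPM to 79.9 and 84.7 CPM, while the MT-CO3 day 21 libraries range from 7964 to 23370 CPM.

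Mitochondrial transcripts were lower on day 34 in 10 of 13 genes, with a median of -0.70, but 0 passed in edgeR, with 4 at an unadjusted p under 0.05 (34.7% of all genes), and 4 passed in DESeq2 (MT-CO1, MT-CO2, MT-CO3 and MT-CYB). DESeq2 called 2254 of all 18762 genes lower and 2463 higher. MT-CO3 was at 10590, 7964 and 23370 CPM on day 21 and 3829 and 6595 on day 34 (-1.56, SE 0.52, edgeR adjusted p 0.0815). MT-CYB was at 7313, 5815 and 14380 against 2524 and 5295 CPM (-1.37, SE 0.49, adjusted p 0.100). The groups did not overlap, and day 21 replicate 3 was the highest library for both genes. MT-CO2 (-1.03), MT-CO1 (-1.02), MT-ND1 (-0.95), MT-ATP6 (-0.78), MT-ND4 (-0.70), MT-ND3 (-0.66), MT-ND5 (-0.42) and MT-ND2 (-0.38) were below 0, and MT-ND4L (0.16), MT-ND6 (0.25) and MT-ATP8 (0.48) above.

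Lists of related genes held some calls on day 34, to be read beside the 7.91% of all genes lower and 9.60% higher. Of citrate cycle genes, 6 of 16 fell and 0 rose (SUCLG2 -1.06, DLAT -1.01), of carriers 2 of 7 (SLC25A5 -0.85 and SLC25A3 -0.82, which move ADP with ATP, and phosphate), and of chain proteins outside the patterns 2 of 12 (CYC1 -0.80, SDHC -0.75). Mitochondrial ribosomal proteins gave 15 lower and 0 higher of 75. Regulators gave 1 each way, with PPARGC1A, a coactivator of mitochondrial genes, at 1.00 (2.05 ± 0.21 CPM on day 34, n = 2, against 0.938 ± 0.086, n = 3, SD) and TFB2M, a mitochondrial transcription factor, at -0.68. COX11, a copper factor of complex IV, fell by 0.64, the single call among 34 assembly factors. Squamous markers were 9.27 to 15.0 CPM on day 21 and 320 and 1547 on day 34, hepatocyte markers 2432 to 2776 against 98.6 and 866, gut markers 174 to 323 against 2.95 and 27.4, and cycling markers 1143 to 1263 against 497 and 762. MALAT1 and NEAT1 together were 11810 to 19190 CPM on day 21 and 22130 and 22250 on day 34, germ cell markers 57.2 to 97.3 against 16.3 and 32.5, neural markers 9.26 to 10.5 against 63.9 and 15.9, and muscle markers 21.9 to 27.0 against 61.6 and 34.2. Their part in the result was not tested.

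The day 34 comparison was repeated within each marker class. In epithelial-marker cells 9 of 74 members fell (12.2%) and 0 rose (10.4% of all genes lower, 11.6% higher), and in mesenchymal-marker cells 9 of 75 fell (12%) and NDUFC1 rose (9.91% lower, 13.7% higher). Both shares of lower members were close to those of all genes. The NDUFC1 call was lost with the replicate block and without day 21 replicate 1, day 21 replicate 3 or day 34 replicate 1. ATP5F1A, ATP5F1B, ATP5PB, NDUFA9, NDUFV1, UQCRC2 and UQCRHL fell in both classes. MT-CO3 fell by 1.48 in mesenchymal-marker cells (SE 0.45, edgeR adjusted p 0.0410), a call lost with the replicate block and without day 21 replicate 1, day 21 replicate 3 or day 34 replicate 1. As a difference of effects, UQCRH, the hinge protein of complex III, and NDUFS1 had a higher effect in mesenchymal-marker cells and ATP5MC2 a lower one, 3 of 75 members, beside 9.44% of all genes higher and 7.82% lower. UQCRH was at 888, 918 and 792 CPM on day 21 and 470 and 785 on day 34 in epithelial-marker cells, and at 884, 914 and 771 against 788 and 969 in mesenchymal-marker cells. Its low epithelial value was that of 1 day 34 library. The count of 3, and the call of MT-ND1 for the same difference, were lost without any 1 day 21 library, where fewer of all genes were called too. This count rose without day 34 replicate 2, as did that of all genes. The epithelial-marker count was 1 to 3 without 1 day 21 library, again with fewer of all genes called. It also rose without day 34 replicate 2, along with that of all genes.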

How the data were processed

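Single-cell RNA-seq counts of 19 libraries in 9 groups were analysed. The authors deposited raw UMI counts per gene and cell as matrices. The submitters' processing notes name bcl2fastq, Cell Ranger 3.0.2, Scanpy and GRCh38, and the matrix headers name software version 3.0.2 (ULA, TGFB1, PA) or 6.0.2 (OA, untreated). The members and lists were chosen with earlier results of these data known.

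Cells with at least 500 genes and at most 20% MT- counts were kept, and no doublet caller was run: leaving out the cells with the most UMIs was an alternative. Counts were summed per library over the 32703 genes listed for every library. Each comparison used edgeR 4.0.16 (quasi-likelihood F test, TMM, filterByExpr, R 4.3.3), in 1 fit of the 14 shaker and 1 of the 5 ULA libraries, with Benjamini-Hochberg adjustment over all genes tested and a threshold of 0.05. A class difference is the mesenchymal-marker minus the epithelial-marker effect, with the library as a block. A cell's class is its larger marker UMI sum, of at least 2, and 0.971% to 11.9% of cells per library lie near the boundary. The scripts were tested on simulated data.

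The genes named were, by rule, the 5 nuclear members with the largest log2 fold change past the threshold in each direction (the 3 with the smallest p where none passed), all 13 mitochondrial members, the subunit isoform sets, and the 2 genes of each list with the largest change past the threshold. Other members named as called, or called in a marker class, were named after their values were seen. Counting intervals are exact and cover counting error only. Alternatives were DESeq2 1.42.0, RLE normalization, no filter, stricter cells, thinning to 1000 UMIs, leaving out each library, a replicate block and, chosen after seeing the data, a crossed block, leaving out both shallow controls, and plain library sizes. OA in mesenchymal-marker cells was not tested, since its libraries hold under 50 such cells each.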

Additional observations from a re-analysis of the deposited data

Results flagged for a closer look

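Some members had an effect that differed between the marker classes, by a test of the difference itself (edgeR, library as a block). Each value is the log2 fold change in mesenchymal-marker cells minus that in epithelial-marker cells. The classes are ranges of marker counts and need not hold the same cells in every group. With TGFB1 the difference was 0.89 for ATP5MC1 (SE 0.26, adjusted p 0.0428), 0.75 for ATP5MC2 (SE 0.16, adjusted p 0.0039), 0.70 for NDUFB1 (SE 0.19, adjusted p 0.0265), 0.60 for NDUFC1 (SE 0.18, adjusted p 0.0451), 0.57 for COX7C (SE 0.17, adjusted p 0.0399) and 0.55 for ATP5MG (SE 0.17, adjusted p 0.0451). Of all genes 2.22% had a higher and 4.53% a lower effect, and of these 6 calls that of ATP5MC2 alone remained when any 1 library other than control replicate 2 was left out. Between day 34 and day 21 of ULA organoids it was 0.51 for UQCRH (SE 0.12, adjusted p 0.0297), 0.44 for NDUFS1 (SE 0.12, adjusted p 0.0424), 0.43 for MT-ND1 (SE 0.10, adjusted p 0.0258) and -0.53 for ATP5MC2 (SE 0.11, adjusted p 0.0171), beside 9.44% of all genes with a higher and 7.82% with a lower effect. These 4 calls were lost without any 1 day 21 library, and that of NDUFS1 also without day 34 replicate 1.

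The mitochondrial ribosomal RNAs MT-RNR1 and MT-RNR2 are listed in the ULA matrices but not in the others, and entered no comparison. They held 2.11%, 3.47% and 1.97% of kept UMIs in the 3 day 21 libraries and 1.47% and 1.90% in the 2 day 34 libraries.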

How the results depend on the processing

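Of 30 results for single named genes, 29 kept their direction in every alternative run for them. The exception was NDUFB3 with PA, at -0.47 or 1.07 when PA replicate 2 or 1, in that order, was left out (the cause was not tested). For TGFB1, the 5 nuclear calls became 8 with DESeq2 (1 higher), 10 without the filter (1 higher), 3 with the replicate block, 2 in a fit of its own libraries, 11 with plain library sizes, 1 without both shallow controls and 1 to 32 (17 higher, without control replicate 2) when 1 library was left out, and the mitochondrial count 0 to 1. For OA, the 18 nuclear calls became 24 with DESeq2, 26 without both shallow controls, 23 in a fit of its own libraries, 4 after thinning, 7 with plain library sizes (2 lower) and 3 to 12 with 1 library left out. The 2 mitochondrial calls became 4 with DESeq2, without the filter or with stricter cells, and 1 without the highest-UMI cells, after thinning, with plain library sizes or with any 1 library left out. For the OA control against untreated organoids, DESeq2 gave 6 nuclear and 2 mitochondrial calls, and the 1 mitochondrial call became 0 after thinning, with the replicate block, with the crossed block, in a fit of its own libraries and with any 1 library left out.

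For ULA organoids the 7 nuclear calls became 17 with DESeq2 (15 lower, 2 higher). With the replicate block they became 0, but there 0 of all 18762 genes were called. The nuclear calls became 0 or 1 with 1 day 21 library left out, where fewer of all genes were called too. The 0 mitochondrial calls became 4 with DESeq2 and 1 without the filter, and stayed at 0 with 1 day 21 library left out. For the OA minus PA effect, the 3 nuclear calls became 6 with DESeq2, 1 without the filter, with stricter cells, without the highest-UMI cells, after thinning, with the replicate block or with plain library sizes, and 1 to 2 with 1 library left out. The 1 mitochondrial call became 2 without the filter or without both shallow controls, and 1 to 2. With 1 library left out, epithelial-marker counts were 1 to 34 (TGFB1), 1 to 5 (OA) and 1 to 22 (ULA, 0 with the replicate block), mesenchymal-marker counts 0 to 10 (TGFB1) and 4 to 9 (ULA), and class differences 1 to 18 (TGFB1) and 0 to 16 (ULA). Where an arm kept 1 library, it was assumed to vary like the other groups. Counts of members called are to be read beside those of all genes, which also changed from fit to fit.

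Replicate numbers were not used as pairs. Deviations of same-numbered libraries correlated at -0.19 for TGFB1, 0.084 for PA, 0.035 for OA, -0.41 for the OA control against untreated organoids, and -0.19 and -0.30 for ULA. With 2 libraries per group a shaker comparison yields a single value, so this check cannot settle whether samples were paired. With the numbers crossed, TGFB1 kept a count of 5. Most groups held 2 libraries, which limits the precision.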
